A study of Mus musculus with 9 samples.

Results

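Fatty acid activation and beta-oxidation enzymes were described here as 36 genes, found by symbol among the 43154 gene rows listed for each heart. They were grouped by step into uptake and activation (8 genes), the carnitine shuttle (5), the acyl-CoA dehydrogenases (7), the later steps of the cycle (7) and 9 auxiliary genes, comprising 3 isomerases and a reductase, 3 electron transfer genes and 2 genes of malonyl-CoA control. All 36 passed the filter on low values and exceeded 1 FPKM (fragments per length of transcript, scaled to the mapped fragments of the heart) in every heart, with levels from 2.02 to 2339 FPKM. The genes were chosen by function and not by their values, but with earlier results of these data known.

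The libraries were made from poly(A) RNA of 9 whole hearts, all from C57BL/6 mice. In the transgenic mice (MHC-CnATg) the cardiomyocyte promoter of the α-myosin heavy chain gene drives calcineurin A, the catalytic subunit of a phosphatase that responds to calcium and enlarges the heart. There were 3 transgenic hearts with vehicle, 2 transgenic hearts with JIB-04 and 4 wild type hearts with vehicle. JIB-04 inhibits Jumonji histone demethylases and was given at 50 mg/kg, with 3 doses each week starting at the age of 4 weeks. Transgenic vehicle heart 1, JIB-04 heart 1 and wild type hearts 1 and 2 were collected at day 125, and the others at day 158. No JIB-04 wild type hearts were analysed here, so JIB-04 was compared with vehicle in transgenic hearts only. The labels give each heart its own number, and say nothing further about litters or dosing cohorts.

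Long-chain fatty acids are the main fuel of the adult heart. They are taken up and coupled to coenzyme A by acyl-CoA synthetases, passed into mitochondria as carnitine esters by Cpt1 and Cpt2, and shortened in a cycle of dehydrogenation, hydration, a further dehydrogenation and thiolytic cleavage. Electrons from the acyl-CoA dehydrogenases reach the respiratory chain through the electron transfer flavoprotein. Malonyl-CoA inhibits Cpt1 and so limits entry into the cycle.

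The calcineurin Aα gene Ppp3ca was examined as the check of the labels. It was at 22.9, 23.4, 24.1 and 24.8 FPKM in wild type, 1762, 1706 and 199 FPKM in transgenic vehicle and 1536 and 1434 FPKM in JIB-04 hearts, listed here and below in the order of heart number. The 5 transgenic hearts were all far above the 4 wild type hearts, and transgenic vehicle heart 3 was the lowest of the transgenic hearts. That heart also stood apart in Myh6, at 705 FPKM against 2073 and 2220 FPKM in the other transgenic vehicle hearts, and with JIB-04 heart 2 it had the largest share of summed FPKM on the mitochondrial chromosome (29.8% and 30.9%, range over all hearts 10.0% to 30.9%). Relative depth was 1 to 1.22 in wild type and 1.26 to 1.51 in transgenic hearts, with wild type heart 1 set to 1. It was estimated as the most common ratio, gene by gene, of low FPKM values in wild type heart 1 to those in the other heart. Read totals were not used here.

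In transgenic vehicle hearts the genes of the later steps of the cycle and the auxiliary genes were lower than in wild type, while most genes of uptake and activation did not pass the test. Of the 36 genes, 25 fell, 0 rose and 11 did not pass the test (limma on log2(FPKM + 1), Benjamini-Hochberg adjusted p under 0.05 over all 13487 genes tested). Over all genes tested, 15.7% were called lower and 20.3% higher. The median difference was -0.46 for the 36 genes and 0.05 for all genes tested. All 7 genes of the later steps and all 9 auxiliary genes fell, against 3 of 5 in the carnitine shuttle, 4 of 7 acyl-CoA dehydrogenases and 2 of 8 in uptake and activation. In 26 of the 36 genes the 3 transgenic vehicle hearts lay below all 4 wild type hearts, a pattern found in 17.7% of all genes tested. Only Acaa2 and Eci1 fell at least 2-fold.

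Seen heart by heart, the median of the 36 genes, each taken as a percent of its wild type mean, was 72.6%, 70.6% and 70.1% in transgenic vehicle hearts 1 to 3. It was 81.5% and 69.7% in JIB-04 hearts 1 and 2, and 95.9% to 102% in the wild type hearts. For the later steps alone the medians were 64.7%, 61.0% and 60.7% in the vehicle hearts and 67.8% and 59.5% in the JIB-04 hearts. For uptake and activation they were 90.8%, 94.2% and 87.3%, and 89.2% and 89.3%.

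**Figure D1:**
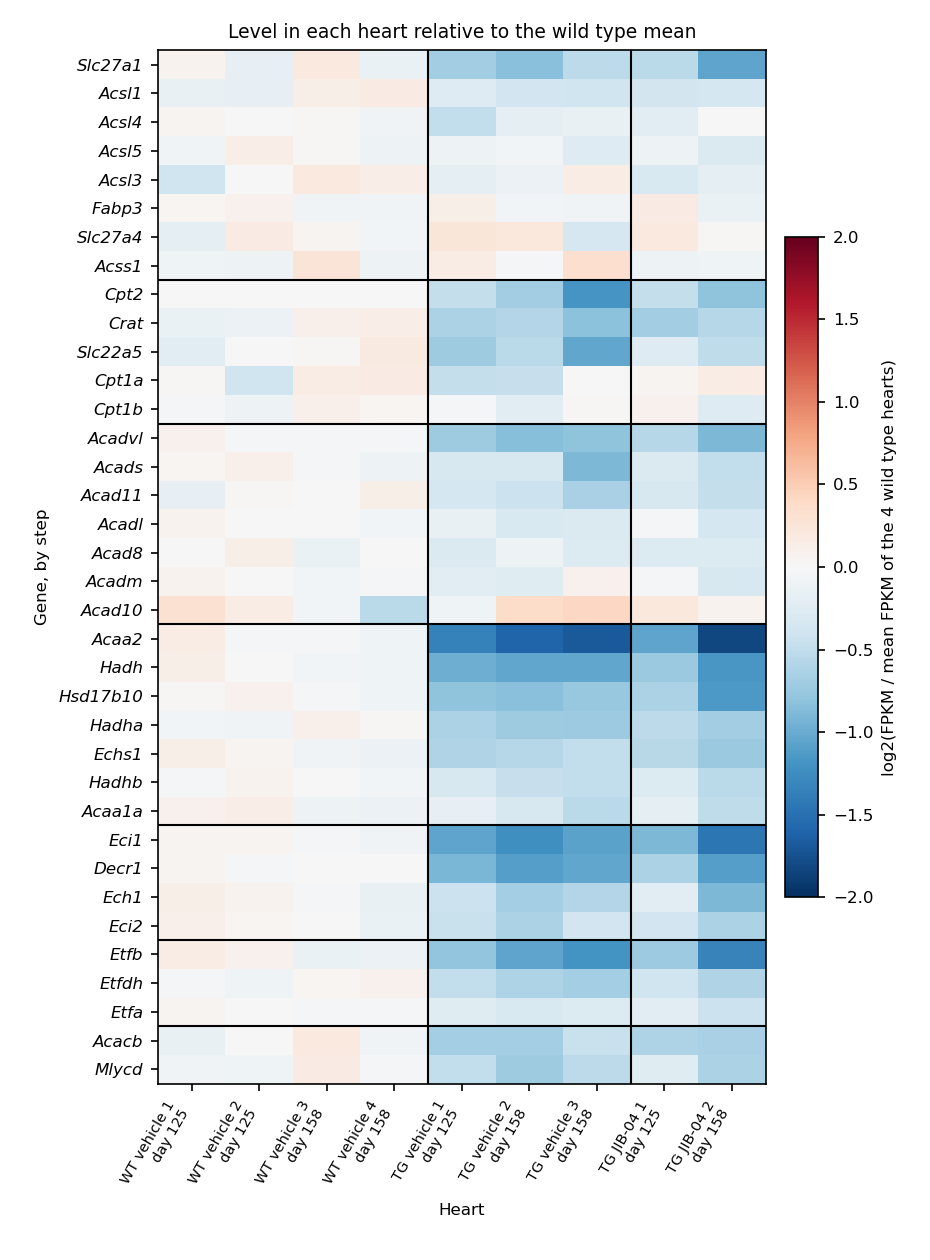
Each row is a gene, ordered by step, and each column a heart. Colour gives the log2 ratio of the FPKM in that heart to the mean of the 4 wild type hearts. The transgenic columns are blue through the later steps and auxiliary genes, where the lowest cell is Acaa2 in JIB-04 heart 2 at 28.3% of the wild type mean, and are near white for Fabp3 and Cpt1b.

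The scale of the values bears on these counts. When each heart was scaled to the same summed FPKM, the median of all genes tested moved from 0.05 to 0.24 and the share of higher calls from 56.3% to 81.7%. Under that scaling 14 of the 36 genes were called lower and Acss1 was called higher, with a median of -0.24 for the 36. Of all 13534 genes tested in that fit, 1006 were called lower, against 2123 of 13487 in the main fit. Under median of ratios, quantile normalization and totals without the mitochondrial and 20 highest genes, 26, 24 and 24 genes were called lower. Over all genes tested the lower calls were 2532 of 13478, 2540 of 13487 and 1945 of 13500. Among the 25 genes called, 11 kept the call under all 23 alternatives tried, namely Acaa2, Acadvl, Cpt2, Crat, Decr1, Eci1, Etfb, Etfdh, Hadh, Hadha and Hsd17b10, and 24 stayed below 0 in all of them. The exception, Acadl, was at 0.004 with equal totals. With day 158 hearts alone, 2 in each compared group, 14 of the 36 genes were called lower and their median was -0.53. Of all 13043 genes tested in that fit, 524 were called lower. At day 125 there was 1 transgenic vehicle heart, so no test was made within that day.

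Markers of cell types moved with genotype as well. Cardiomyocyte markers summed to 19895 to 22454 FPKM in transgenic vehicle, 19329 to 21567 FPKM in JIB-04 and 24138 to 28765 FPKM in wild type hearts, and 5 of 11 fell and 1 rose in transgenic vehicle hearts. Fibroblast markers summed to 521 to 663, 616 to 622 and 258 to 323 FPKM, and 4 of 7 rose. The sum of 663 FPKM is that of transgenic vehicle heart 3, where Dcn made up 567 FPKM, while Col1a1 (9.67 FPKM) and Lum (21.1 FPKM) lay below every wild type heart (10.9 to 15.8 and 35.5 to 39.9 FPKM). Endothelial markers summed to 105 to 135, 110.0 to 114 and 184 to 195 FPKM, and 5 of 6 fell. Smooth muscle and pericyte markers summed to 97.4 to 137, 99.9 to 110.0 and 167 to 200 FPKM, with 2 of 5 lower and 1 higher. The higher one, Cnn1, reached 1 FPKM in transgenic hearts only (0.600 to 1.96 FPKM, against 0.309 to 0.553 FPKM in wild type). It too entered the test through the group where it is high, and its difference is a description. Macrophage markers overlapped between the groups (0 of 6 called, 59.1 to 82.6 FPKM over all hearts). Atrial markers overlapped too (0 of 3 called), and wild type heart 4 stood apart from the other wild type hearts in Myl7 (13.4 FPKM against 0 to 0.165 FPKM) and Sln (7.98 FPKM against 0). Without that heart 21 of the 36 genes were called lower in transgenic vehicle hearts and 0 higher, against 1623 and 2056 of all 13433 genes tested. All 7 adipocyte markers were below 1 FPKM in every heart, with Ucp1 at 0 throughout. Skeletal muscle markers summed to at most 4.30 FPKM in any heart, with 1 of the 3 tested lower. That marker, Tnni2, reached 1 FPKM in wild type hearts only (1.68 to 2.14 FPKM, against 0 to 0.316 FPKM in transgenic hearts). It entered the test through the group where it is high, so its difference is a description. The part of these shifts, and of the depth that differed between the genotypes, in the results was not tested. In whole hearts, fewer cells of a type and less RNA per cell cannot be told apart.

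The sequence before the start of the gene was available for 32 of the 36 genes (250 bases, RefSeq, GRCm38.p6), and not for Cpt1b, Crat, Acaa2 or Decr1. It was searched on both strands for motifs that regulators of these genes are known to bind. The hexamer AGGTCA, the core recognised by nuclear receptors such as the PPARs, was found in 4 of 32 genes (12.5%; Cpt1a, Acadvl, Acadm and Echs1), against 15.8% of 27025 genes with such a window and 13.0% of the 9283 of them that were tested. Its extended form TCAAGGTCA, read by oestrogen-related receptors, and the direct repeat AGGTCANAGGTCA were found in 0 of 32, against 0.422% and 0.0407% of all windows, and both contain the hexamer. The NRF1 motif GCGCNTGCGC was found in 4 of 32 (12.5%; Slc22a5, Acad10, Etfb and Etfdh), against 4.23% of all windows and 9.29% of those of tested genes. The GC box GGGCGG was found in 22 of 32 (68.8%), against 35.4% and 63.8%. A match is a run of letters, and binding was not measured.

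Stretches of 4 windows are shown, chosen to set genes that fell beside one that did not pass the test and to show a gap between divergent starts. Etfb and Acadvl fell, Acadm did not pass the test, and Hadha and Hadhb start back to back from opposite strands with 85 bases between them. Each is printed 5′ to 3′ on the strand of the gene named, with motif matches in capitals: the NRF1 motif (as its complement) in Etfb, AGGTCA in Acadvl, its complement in Acadm, and 2 GC boxes in the Hadhb and Hadha gap. They lie at chr7:43443952-43444071 (plus strand), chr11:70015453-70015572 (minus strand), chr3:153944774-153944893 (minus strand) and chr5:30155163-30155247 (plus strand, the strand of Hadhb), all outside annotated exons.
Etfb: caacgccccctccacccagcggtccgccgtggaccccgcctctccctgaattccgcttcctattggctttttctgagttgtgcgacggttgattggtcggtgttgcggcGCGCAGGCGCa
Acadvl: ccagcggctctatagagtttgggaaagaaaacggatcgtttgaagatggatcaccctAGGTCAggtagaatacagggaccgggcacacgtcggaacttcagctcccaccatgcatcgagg
Acadm: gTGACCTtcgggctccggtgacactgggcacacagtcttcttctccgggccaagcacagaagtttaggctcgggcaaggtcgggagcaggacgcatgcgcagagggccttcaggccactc
Hadhb and Hadha: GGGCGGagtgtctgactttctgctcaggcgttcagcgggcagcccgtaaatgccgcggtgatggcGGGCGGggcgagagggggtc

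Uptake and activation held the most abundant member, and most of its genes did not pass the test. Slc27a1, a fatty acid transport protein of the plasma membrane, was at 79.1, 67.7, 87.0 and 69.0 FPKM in wild type, 46.6, 42.6 and 52.5 FPKM in transgenic vehicle and 51.9 and 36.6 FPKM in JIB-04 hearts. Every transgenic heart lay below every wild type heart, and the level fell by 0.66 (SE 0.14, adjusted p = 0.0094) in transgenic vehicle hearts on the log2(FPKM + 1) scale, which is used for all differences. Acsl1, the main long-chain acyl-CoA synthetase of the heart, was at 205, 202, 247 and 254 FPKM in wild type, 189, 175 and 171 FPKM in transgenic vehicle and 177 and 178 FPKM in JIB-04 hearts. Wild type and transgenic hearts did not overlap, and Acsl1 fell by 0.36 (SE 0.10, adjusted p = 0.02). Acsl4, a synthetase that prefers arachidonic acid, was at 3.70, 3.55, 3.62 and 3.38 FPKM in wild type, 2.54, 3.12 and 3.23 FPKM in transgenic vehicle and 3.04 and 3.58 FPKM in JIB-04 hearts. The vehicle groups did not overlap, JIB-04 heart 2 lay within the wild type range, and the difference of -0.22 (SE 0.09, adjusted p = 0.089) did not pass. The call of Slc27a1 was lost without transgenic vehicle heart 1 (adjusted p = 0.057). That of Acsl1 was lost without transgenic vehicle heart 2 (adjusted p = 0.054), wild type heart 3 (0.068) or wild type heart 4 (0.07).

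Fabp3, the fatty acid binding protein of heart muscle, ranked 27 among all listed genes by its wild type mean. It was at 2161, 2232, 1986 and 1989.6 FPKM in wild type, 2265, 2017 and 1994 FPKM in transgenic vehicle and 2338 and 1912 FPKM in JIB-04 hearts. The 3 groups overlapped almost completely, and the difference was 0.03 (SE 0.06, adjusted p = 0.72), with a 95% interval of -0.11 to 0.17. Acss1, which activates acetate inside mitochondria, was at 136, 134, 172 and 134 FPKM in wild type, 159.9, 140.4 and 181 FPKM in transgenic vehicle and 135 and 135 FPKM in JIB-04 hearts. Wild type heart 3 and transgenic vehicle heart 3 were high, the groups overlapped, and the difference was 0.14 (SE 0.12, adjusted p = 0.37). The transporter Slc27a4 and the synthetases Acsl3 and Acsl5 lay between 2.02 and 7.72 FPKM, with differences of 0.06, -0.06 and -0.10, none past the test. Their directions, and that of Fabp3, changed sign under other scalings. Acsl1 made up 95% ± 0.61 (SD, n = 4) of the summed FPKM of Acsl1, Acsl3, Acsl4 and Acsl5 in wild type and 94.4% ± 0.36 (SD, n = 5) in all transgenic hearts. An exact two-sided permutation test over these hearts gave p = 0.11 (0.22 adjusted over 2 share tests, smallest possible p 0.016). Acsl6, a further long-chain synthetase, is not in this sum. It was at 3.65 to 4.93 FPKM in wild type and 0.148 to 0.415 FPKM in transgenic hearts. The share with Acsl6 in the sum was not tested, and the direction given here may not hold for it.

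In the carnitine shuttle Cpt2, Crat and Slc22a5 fell, while the 2 Cpt1 genes did not pass the test. Cpt2, which returns the acyl group to coenzyme A on the inner mitochondrial membrane (chr4:107903981-107923610, GRCm38), was at 105, 106, 106 and 106 FPKM in wild type, 75.9, 65.5 and 46.9 FPKM in transgenic vehicle and 76.2 and 60.4 FPKM in JIB-04 hearts. The wild type hearts were close to each other (106 ± 0.48 FPKM, SD, n = 4), every transgenic heart lay below them, and Cpt2 fell by 0.74 (SE 0.13, adjusted p = 0.004). Crat, the carnitine acetyltransferase, was at 129.9, 131, 153 and 157 FPKM in wild type, 92.3, 95.1 and 81.0 FPKM in transgenic vehicle and 87.8 and 95.7 FPKM in JIB-04 hearts. All transgenic hearts were lower than all wild type hearts, and Crat fell by 0.69 (SE 0.09, adjusted p = 0.00086). Slc22a5, which brings carnitine into the cell, was at 10.0, 11.5, 11.8 and 13.1 FPKM in wild type, 7.10, 7.96 and 5.66 FPKM in transgenic vehicle and 9.72 and 8.15 FPKM in JIB-04 hearts. The groups did not overlap, the 2 JIB-04 hearts were above the 3 vehicle hearts, and the level fell by 0.68 (SE 0.13, adjusted p = 0.0054) in vehicle hearts.

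Cpt1b, the muscle isoform of the outer membrane transferase that malonyl-CoA inhibits, was at 228, 217, 249 and 239 FPKM in wild type, 226, 200.3 and 237 FPKM in transgenic vehicle and 247 and 196 FPKM in JIB-04 hearts. The groups overlapped, and the difference was -0.07 (SE 0.10, adjusted p = 0.62), with an interval of -0.31 to 0.17 and a change of sign with equal totals (0.15). Cpt1a, the isoform of liver and of the fetal heart, was at 11.5, 8.67, 12.6 and 12.8 FPKM in wild type, 8.18, 8.28 and 11.5 FPKM in transgenic vehicle and 11.8 and 12.6 FPKM in JIB-04 hearts. Transgenic vehicle hearts 1 and 2 lay below every wild type heart and heart 3 within their range, and the difference of -0.30 (SE 0.13, adjusted p = 0.1) did not pass. Without heart 3 it was -0.41 (adjusted p = 0.033). Cpt1a made up 4.64% ± 0.54 (SD, n = 4) of the summed FPKM of both isoforms in wild type. In all transgenic hearts together it made up 4.54% ± 0.97 (SD, n = 5), with an exact two-sided permutation p of 0.81 (0.81 adjusted). The mean share was 4.03% (3.49% to 4.63%) in transgenic vehicle and 5.31% (4.57% and 6.05%) in JIB-04 hearts, on either side of wild type. The pooled test therefore cannot tell whether either group differed from wild type. The ratio of Cpt2 to Cpt1b, a description without a test, was 0.425 to 0.490 in wild type and 0.198 to 0.336 in the 5 transgenic hearts.

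The acyl-CoA dehydrogenases carry out the opening oxidation, each on a range of chain lengths, and they did not move alike. Acadvl, the very long-chain enzyme of the inner membrane (chr11:70010183-70015411), was at 479.7, 446, 448 and 441 FPKM in wild type, 276, 250.1 and 259 FPKM in transgenic vehicle and 304 and 243 FPKM in JIB-04 hearts. The genotypes were far apart, with the highest transgenic heart at 304.5 FPKM and the lowest wild type heart at 441 FPKM, and Acadvl fell by 0.77 (SE 0.07, adjusted p = 0.00018). Its exons overlap those of Dvl2 on the other strand, and these libraries do not keep strand. Genes on the other strand also overlap exons of Acsl1, Acsl5, Acss1, Fabp3, Crat, Acad11, Etfdh and Eci2. Genes on the same strand overlap those of Acsl3, Cpt1b, Acad11 and Etfb. Acads, the short-chain enzyme, was at 105, 111, 99.4 and 95.8 FPKM in wild type, 82.3, 82.7 and 55.1 FPKM in transgenic vehicle and 84.0 and 73.2 FPKM in JIB-04 hearts. Transgenic vehicle heart 3 was the lowest, no transgenic heart reached the wild type range, and Acads fell by 0.47 (SE 0.13, adjusted p = 0.022). Acad11, a further family member, was at 50.1, 56.6, 56.6 and 60.7 FPKM in wild type, 43.9, 41.6 and 35.6 FPKM in transgenic vehicle and 44.8 and 40.2 FPKM in JIB-04 hearts. Again wild type and transgenic hearts did not overlap, and Acad11 fell by 0.46 (SE 0.10, adjusted p = 0.0092). The call of Acads was lost without transgenic vehicle heart 1 (-0.52, adjusted p = 0.062), wild type heart 3 (-0.44, 0.068) or wild type heart 4 (-0.47, 0.061).

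Acadl and Acadm, for long and medium chains, were the most abundant of the family together with Acadvl. Acadl fell by 0.22 (SE 0.07, adjusted p = 0.043), and this call was lost in 12 of 23 alternatives, among them the fits without any 1 of the transgenic vehicle hearts or without wild type heart 1, 3 or 4 (adjusted p 0.054 to 0.13), and the sign turned in 1 more, equal totals. Acadm was at 548, 525, 502 and 509.6 FPKM in wild type, 448, 442 and 554 FPKM in transgenic vehicle and 512 and 416 FPKM in JIB-04 hearts. Transgenic vehicle heart 3 was the highest of all 9 and the other vehicle hearts were below the wild type range. The difference was -0.11 (SE 0.10, adjusted p = 0.45) and changed sign with equal totals (0.11). Without heart 3 it was -0.23 and past the threshold (adjusted p = 0.05 after rounding). Acad8, which acts in valine breakdown, differed by -0.20 (0.01 with equal totals) and Acad10 by 0.23, neither past the test. Acad8 passed without transgenic vehicle heart 2 (-0.26, adjusted p = 0.045), and Acad10 passed as higher without heart 1 (0.50, adjusted p = 0.049). The ratio of Acadvl to Acadm was 0.850 to 0.892 in wild type and 0.468 to 0.616 in transgenic hearts.

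All 7 genes of the later steps fell. Acaa2, the mitochondrial thiolase that releases acetyl-CoA, was at 591, 519.6, 518 and 505 FPKM in wild type, 209, 177 and 166 FPKM in transgenic vehicle and 258 and 151 FPKM in JIB-04 hearts. The highest transgenic heart, JIB-04 heart 1, was far below the lowest wild type heart. Its fall was the largest of the 36 genes, -1.48 (SE 0.12, adjusted p = 1e-04), to 0.358 of the wild type level on the log2(FPKM + 1) scale. Hadh, the dehydrogenase for medium- and short-chain hydroxyacyl-CoA (chr3:131233419-131272101), was at 322, 298, 286 and 281 FPKM in wild type, 152, 145 and 144 FPKM in transgenic vehicle and 177 and 132 FPKM in JIB-04 hearts. The transgenic vehicle hearts were close to each other (147 ± 4.1 FPKM, SD, n = 3) and far below wild type, and Hadh fell by 0.98 (SE 0.08, adjusted p = 9.8e-05). Hsd17b10, a mitochondrial dehydrogenase that is also a subunit of ribonuclease P, was at 138, 143, 133 and 128 FPKM in wild type, 77.9, 75.8 and 80.6 FPKM in transgenic vehicle and 87.4 and 60.9 FPKM in JIB-04 hearts. Wild type and transgenic hearts did not overlap, and Hsd17b10 fell by 0.76 (SE 0.10, adjusted p = 0.00082).

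Hadha and Hadhb encode the α and β subunits of the trifunctional protein, which performs the last steps on long chains, and share the gap of 85 bases printed above. Hadha was at 458, 452, 512 and 482 FPKM in wild type, 308, 290.4 and 289 FPKM in transgenic vehicle and 329.6 and 293 FPKM in JIB-04 hearts. Hadhb was at 767, 832, 792 and 762 FPKM in wild type, 630.2, 575 and 558 FPKM in transgenic vehicle and 655 and 545 FPKM in JIB-04 hearts. Both sets of transgenic hearts lay below wild type, and the genes fell by 0.68 (SE 0.08, adjusted p = 4e-04) and 0.40 (SE 0.07, adjusted p = 0.0033). The ratio of Hadha to Hadhb was 0.543 to 0.647 in wild type and 0.489 to 0.537 in transgenic hearts. Exons of Hadha overlap those of Garem2 on the other strand. Echs1, the short-chain enoyl-CoA hydratase, fell by 0.53 and Acaa1a, a peroxisomal thiolase, by 0.29. Echs1 overlaps Paox and Acaa1a overlaps Myd88, both on the other strand, and Acaa1a has a close copy, Acaa1b, so that its reads may have been divided between them. For Acaa1a the call depended on transgenic vehicle heart 1 (adjusted p = 0.059 without it) and wild type heart 3 (0.051 without it).

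**Figure D2:**
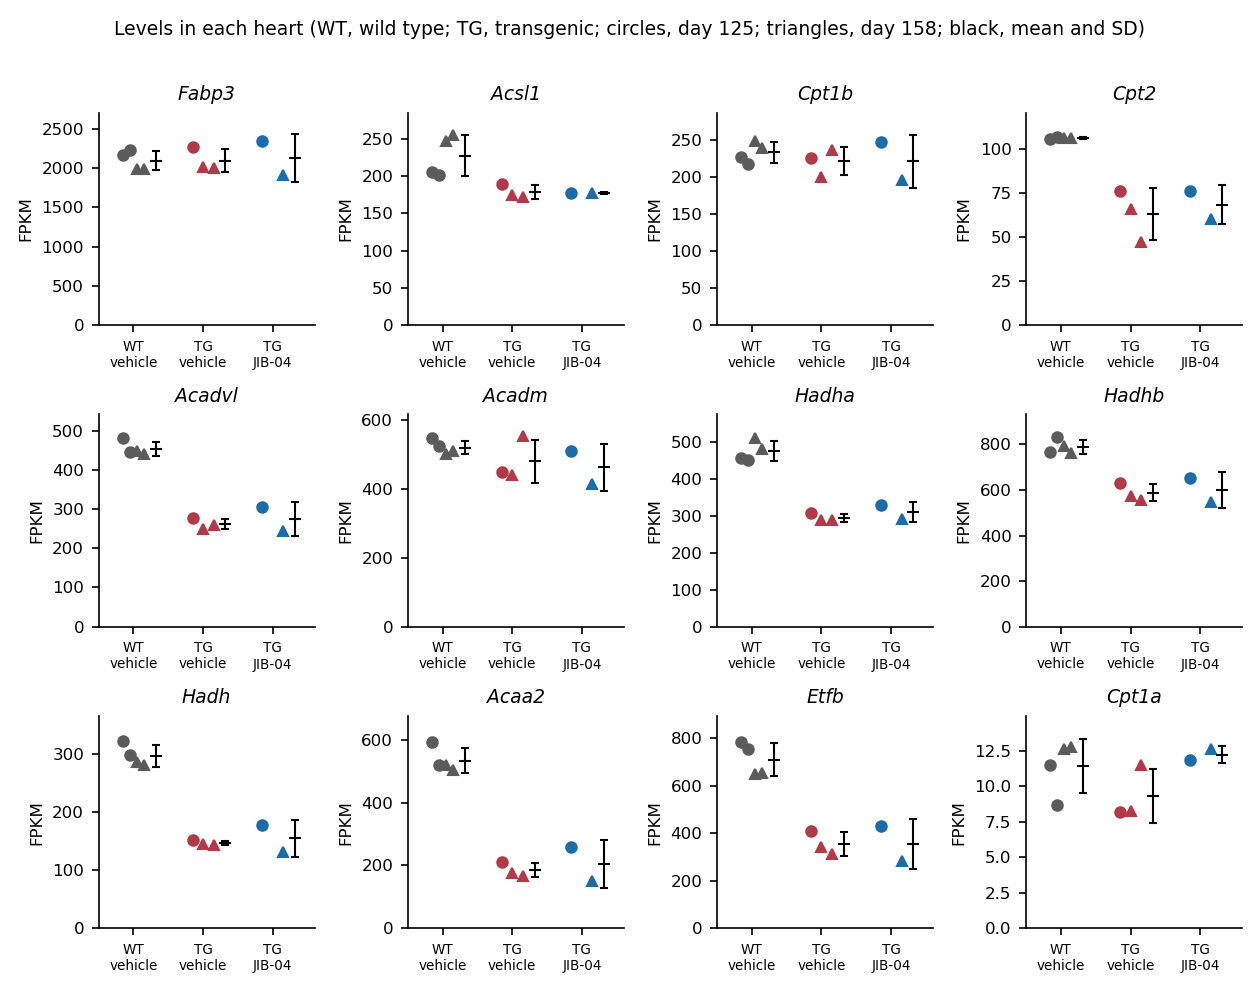
FPKM on linear axes from 0 for 12 of the genes, with circles for day 125, triangles for day 158 and, in black, the group mean with its SD (n = 4 wild type vehicle, 3 transgenic vehicle, 2 transgenic JIB-04). Hadha, Hadhb, Hadh, Acaa2 and Etfb separate by genotype in every heart, while Fabp3 and Cpt1b overlap.

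The auxiliary isomerases and the reductase bring double bonds of unsaturated fatty acids into a position the cycle can use, and all 4 fell. Eci1, an enoyl-CoA isomerase (chr17:24426683-24439316), was at 273, 274, 256 and 249 FPKM in wild type, 126, 112 and 125 FPKM in transgenic vehicle and 141 and 96.7 FPKM in JIB-04 hearts. No transgenic heart came near the wild type range, and Eci1 fell by 1.08 (SE 0.10, adjusted p = 0.00014). Decr1, the dienoyl-CoA reductase, was at 127, 119, 121 and 121 FPKM in wild type, 64.7, 57.0 and 59.6 FPKM in transgenic vehicle and 79.2 and 57.0 FPKM in JIB-04 hearts. Wild type and transgenic hearts did not overlap, JIB-04 heart 1 was the highest transgenic heart, and Decr1 fell by 0.98 (SE 0.09, adjusted p = 0.00019). Ech1, a dienoyl-CoA isomerase, was at 924, 894, 834 and 768 FPKM in wild type, 635, 536 and 571 FPKM in transgenic vehicle and 727 and 459.5 FPKM in JIB-04 hearts. JIB-04 hearts 1 and 2 were the highest and the lowest transgenic hearts, both below wild type, and Ech1 fell by 0.51 (SE 0.10, adjusted p = 0.006). Eci2 fell by 0.46 (SE 0.08, adjusted p = 0.0041).

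The electron transfer flavoprotein is a dimer of the Etfa and Etfb products, and Etfdh passes its electrons to ubiquinone. Etfb was at 786, 755, 648 and 653 FPKM in wild type, 409, 343 and 312 FPKM in transgenic vehicle and 429 and 282 FPKM in JIB-04 hearts. Etfa was at 429, 411, 402 and 405 FPKM in wild type, 348, 334 and 342 FPKM in transgenic vehicle and 356 and 305 FPKM in JIB-04 hearts. Neither gene overlapped between genotypes, but Etfb fell by 0.95 (SE 0.08, adjusted p = 0.00014) and Etfa fell by 0.25 (SE 0.06, adjusted p = 0.015). The ratio of Etfb to Etfa was 1.61 to 1.84 in wild type and 0.912 to 1.20 in transgenic hearts. Etfdh was at 231, 225, 244 and 252 FPKM in wild type, 169, 155 and 148 FPKM in transgenic vehicle and 181 and 157 FPKM in JIB-04 hearts. It fell by 0.59 (SE 0.08, adjusted p = 0.0011), with no overlap. The call of Etfa ended when transgenic vehicle heart 1 was left out (-0.23, adjusted p = 0.079), or wild type heart 3 (-0.25, 0.051) or wild type heart 4 (-0.25, 0.056).

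Acacb makes malonyl-CoA at the outer mitochondrial membrane and Mlycd breaks it down, and both genes fell. Acacb was at 56.0, 61.7, 71.2 and 59.3 FPKM in wild type, 38.7, 38.7 and 45.5 FPKM in transgenic vehicle and 40.2 and 39.5 FPKM in JIB-04 hearts. Mlycd was at 57.0, 56.5, 67.2 and 58.8 FPKM in wild type, 42.4, 36.6 and 41.5 FPKM in transgenic vehicle and 50.4 and 38.5 FPKM in JIB-04 hearts. In both, every transgenic heart lay below every wild type heart. Acacb fell by 0.60 (SE 0.10, adjusted p = 0.0021), and Mlycd fell by 0.55 (SE 0.11, adjusted p = 0.0067).

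**Figure D3:**
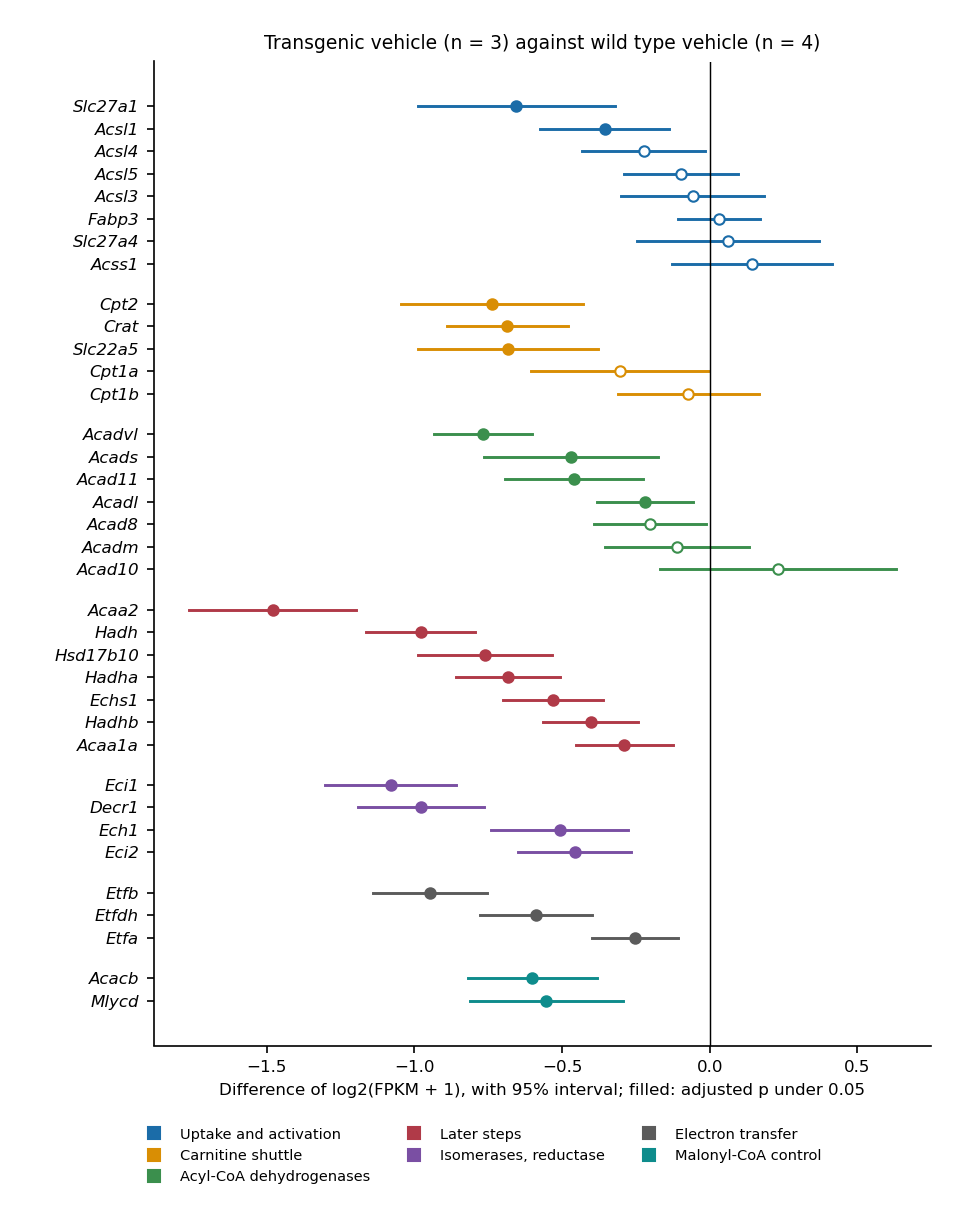
Difference of log2(FPKM + 1) between transgenic vehicle (n = 3) and wild type vehicle (n = 4) hearts for the 36 genes by step, with the 95% interval from limma. Filled points passed the test, and all 25 of them lie to the left of 0, from -0.22 for Acadl to -1.48 for Acaa2.

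The wider pathway was described by 29 further genes, of which 27 were tested (Slc27a2 and Slc27a6 did not reach the filter). Of the 27, 14 were called lower and 0 higher, against 15.7% and 20.3% of all genes tested. Among the 14, Acsl6 and Abcd2 reached 1 FPKM in wild type hearts only, so they entered the test through the group where they are high, and their differences are given as descriptions. Acsl6, a long-chain acyl-CoA synthetase, was at 4.14, 3.65, 4.34 and 4.93 FPKM in wild type, 0.415, 0.347 and 0.256 FPKM in transgenic vehicle and 0.386 and 0.148 FPKM in JIB-04 hearts. All 5 transgenic hearts were under 1 FPKM and far below wild type, with a difference of -1.97, or -3.28 with a pseudocount of 0.1. Slc25a20, the carrier that exchanges acylcarnitine for carnitine across the inner membrane, was at 109, 96.1, 103 and 106 FPKM in wild type, 58.5, 55.3 and 68.1 FPKM in transgenic vehicle and 73.6 and 57.9 FPKM in JIB-04 hearts. The genotypes did not overlap, and Slc25a20 fell by 0.76 (SE 0.11, adjusted p = 0.0013). Abcd2, a transporter of the peroxisomal membrane, was at 1.07, 1.08, 0.914 and 1.23 FPKM in wild type, 0.477, 0.318 and 0.613 FPKM in transgenic vehicle and 0.469 and 0.519 FPKM in JIB-04 hearts. The difference was -0.50, or -1.07 with a pseudocount of 0.1. Phyh, an enzyme of peroxisomal alpha-oxidation, fell by 0.49.

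JIB-04 was compared with vehicle in transgenic hearts to ask whether the inhibitor altered these genes. None of the 36 passed the test (limma, adjusted p 0.99 to 1), while 1 of 13487 genes did (0.00741%). At an unadjusted p under 0.05 there was 1 gene of the 36, against 3.29% of all genes tested. The median difference was -0.003 and 18 of 36 were below 0. With 2 against 3 hearts the intervals were wide. For Hadhb the difference was 0.01 with an interval of -0.19 to 0.20, for Acaa2 0.05 with -0.28 to 0.39, and for Acadvl 0.03 with -0.16 to 0.23.

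The 3 smallest p-values belonged to Cpt1a, Slc22a5 and Acss1, whose heart values are given above. Both JIB-04 hearts lay above the 3 vehicle hearts in Cpt1a and Slc22a5, and below them in Acss1 and Acsl3. Such separation upward was found in 5.55% and downward in 6.88% of all genes tested. Cpt1a differed by 0.41 (interval 0.05 to 0.77, unadjusted p = 0.029, adjusted p = 0.99). Slc22a5 differed by 0.34 (interval -0.02 to 0.70, unadjusted p = 0.064) and Acss1 by -0.23 (interval -0.55 to 0.09, unadjusted p = 0.14). The 2 JIB-04 hearts differed from each other in age, and 30 of the 36 genes were higher in heart 1 (day 125) than in heart 2 (day 158), as were 61.7% of all genes tested.

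**Figure D4:**
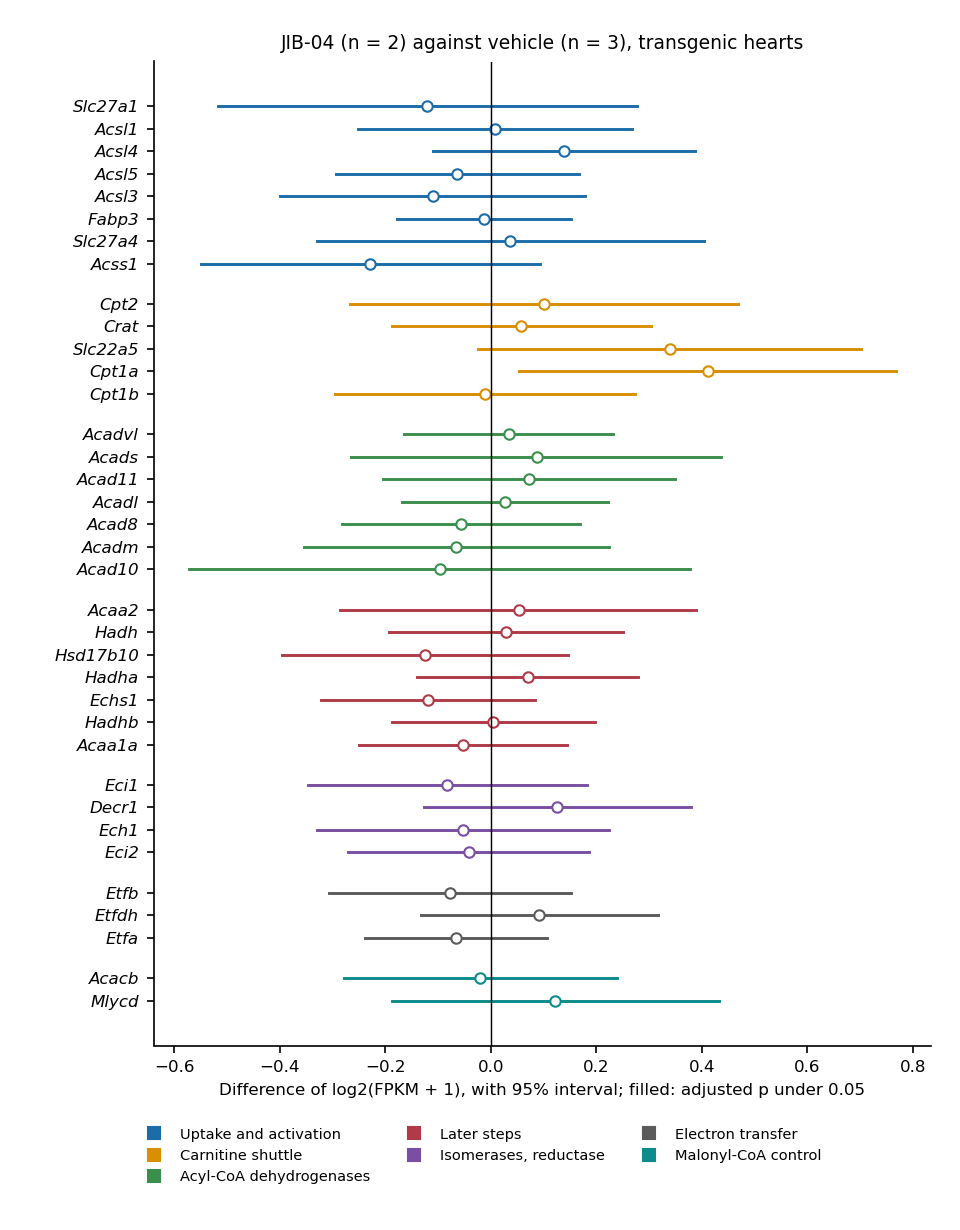
Difference of log2(FPKM + 1) between JIB-04 (n = 2) and vehicle (n = 3) transgenic hearts for the 36 genes by step, with the 95% interval from limma. No point is filled, and only the interval of Cpt1a, 0.05 to 0.77, does not include 0.

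JIB-04 transgenic hearts against wild type hearts gave 22 genes lower and 0 higher, against 14.8% of all genes called lower and 17.4% called higher, with a median of -0.39. This comparison uses the same wild type hearts as the one above, so the 2 are set side by side and not counted as separate support. Acaa2 differed by -1.48 with vehicle and -1.43 with JIB-04, Eci1 by -1.08 and -1.16, Etfb by -0.95 and -1.02, and Hadh by -0.98 and -0.95. All 7 genes of the later steps and all 9 auxiliary genes were again called lower. Slc22a5, Acads and Acadl passed with vehicle and not with JIB-04, at -0.34, -0.38 and -0.19 (adjusted p = 0.12, 0.076 and 0.1), and the direct comparison above found no difference past the threshold. In 25 genes both JIB-04 hearts were below all wild type hearts (21.7% of all genes tested), and in 24 genes all 5 transgenic hearts were (15.3%). The median of -0.39 was -0.495 without JIB-04 heart 1, -0.309 without JIB-04 heart 2 and -0.539 with day 158 hearts alone. Fewer of the 36 genes were called in each of these fits, as were fewer of all genes tested. Each of these fits has a single JIB-04 heart, which is assumed to vary like the hearts of the other groups.

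Between day 158 and day 125, 0 of the 36 genes passed the test (limma, 51 of 13487 genes, 0.378%), 8 had an unadjusted p under 0.05 (18.8% of all genes tested), and 28 were below 0 (7552 of all 13487), with a median of -0.10. That median turned to 0.013 with quantile normalization and to 0.009 with totals without the mitochondrial and 20 highest genes. The smallest p was that of Etfb, at -0.35 (SE 0.07, adjusted p = 0.078). A test of whether the difference between transgenic vehicle and wild type hearts changed with day found 0 of the 36 (1 of 13487 genes, 0.00741%), with 2 at an unadjusted p under 0.05 (2.97% of all genes tested), Acsl1 at -0.43 and Acad10 at 0.81. At day 125 this test rests on 1 transgenic vehicle heart.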

How the data were processed

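RNA was measured in 9 mouse hearts, with groups, replicate numbers and days taken from the labels. Day 125 is given for 4 hearts although the series text has dosing run to day 158. Per the labels, RNA came from Trizol extraction and libraries from a non-directional kit. The submitters' processing notes name the GRCm38 genome with Cufflinks 2.2.1, STAR 2.7.1a, GATK 4.1.2 and Picard. Each deposited file holds FPKM as log2, per the file headers, with no constant stated. Their lowest value was exactly 0, and a constant of 1 was used.

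The 13487 genes that reached 1 FPKM in 2 or more hearts were fitted on log2(FPKM + 1), on which changes of low genes come out too small. The tool was limma 3.58.1 (R 4.3.3), by lmFit and a trended eBayes. The fit held group means and a term for day over all 9 hearts (5 residual degrees of freedom, 3.07 prior). P-values were two-sided and adjusted by Benjamini-Hochberg over all genes tested, with a threshold of 0.05. They measure the spread between these hearts. The fit was also run on simulated data with independent noise, in which few genes changed. That run cannot show how the scale of the values bears on the calls. Intervals are 95% intervals of the fit. Isoform shares were compared by exact permutation in scipy 1.17.1.

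Members and lists were chosen with earlier results of these data known. Named with heart values were up to 3 genes per step with the largest difference between transgenic vehicle and wild type, and the 3 smallest p-values for JIB-04. Fabp3, Cpt1b, Acadm, Hadha and Hadhb fall outside this rule and were added after their values were seen. Of the other pathway genes, up to 3 with the largest called difference were named, and Phyh was added after its values were seen. Alternatives were other pseudocounts, filters and scalings, no day term, a replicate block, robust variance, only the compared groups, day 158 only and each heart left out. The fit without transgenic vehicle heart 3 and JIB-04 heart 2 was added after the data were seen. Promoter windows are from RefSeq (GRCm38.p6), exon overlaps from GENCODE M21, and loci are counted from 1.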

Additional observations from a re-analysis of the deposited data

Results flagged for a closer look

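In 38 sets of 4 wild type hearts, 1 per gene named or drawn, the highest and the lowest heart were checked for a gap wide against the whole range of the set, and chance flags about 1 in 20 such sets. Acss1 was flagged in wild type heart 3, at 172 FPKM against 134 to 136 FPKM in the other wild type hearts. Acadvl was flagged in wild type heart 1, at 479.7 FPKM against 441 to 447.5 FPKM in the others.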

How the results depend on the processing

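For transgenic vehicle against wild type, 25 genes were called. Equal totals gave 15 (14 lower, Acss1 higher) and day 158 hearts only 14, which has fewer hearts. Lower calls over all genes tested were 2123 in the main fit, 1006 with equal totals and 524 with day 158 hearts only. Leaving out 1 heart gave 20 to 26, with 1376 to 2192 lower calls over all genes tested. For JIB-04 against wild type (22 called) these settings gave 12, 9 and 10 to 24, with 10 without JIB-04 heart 2. Without transgenic vehicle heart 3 and JIB-04 heart 2, 26 genes were called for transgenic vehicle against wild type, all lower. Of all 13318 genes tested in that fit, 2128 were called lower. The median for JIB-04 against wild type was -0.294 in that fit, which has a single JIB-04 heart. JIB-04 against vehicle, day, and the change with day gave 0 in every setting run for each.

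Deviations from the group mean correlated between -0.19 and 0.43 for hearts with the same replicate number, and between -0.43 and 0.36 for different numbers. The deviations of the 2 JIB-04 hearts mirror each other, and most pairs with the same number share the day. These ranges therefore cannot show whether the numbers pair the hearts. With the replicate number as a block, 16 and 9 genes were called lower for transgenic vehicle and JIB-04 against wild type, against 1073 and 734 of all 13487 genes tested. Acsl3 was then at 0.058 for transgenic vehicle.

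Changes of sign touched genes that were not called, and Acadl. With equal totals Acsl3 was at 0.102, Acsl5 at 0.092, Cpt1b at 0.151, Acadl at 0.004, Acadm at 0.113 and Acad8 at 0.011, and Acsl4 for JIB-04 against wild type at 0.042 (0.027 with day 158 hearts only). Slc27a4 was at -0.003 with quantile normalization, -0.047 with day 158 hearts only, and -0.031 to 0.204 with a heart left out. Fabp3 was at -0.023 with median of ratios and -0.001 with no day term. Acadm ranged from -0.225 to 0.005 with a heart left out. The difference in Cpt1a share ranged from -0.47 to 0.17 percentage points with a heart left out. The causes of these changes were not tested. Relative depth is the only measure of depth in the values, so counting error could not be given.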
